A study of Mus musculus with 13 samples.

Results

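The guanylate-binding proteins (Gbp) are described here across 4 ages of cells sorted from the mouse brain. The family was taken as the 10 genes named Gbp2 to Gbp11 in the mouse annotation, of 37785 genes in the count tables, and all 10 passed the filter on low counts. They were chosen by their CPM (counts scaled to library size) across the ages, with those values already known, so their own changes with age are given as a description and without a test. Oligodendrocyte precursor cells (OPCs), the glial progenitors of the brain that give rise to myelin-forming oligodendrocytes, had been enriched with magnetic microbeads against the surface receptor Pdgfra, and their total RNA was sequenced in bulk. All mice were wild-type C57BL/6 animals, 3 to 4 per age, and the labels name no drug. The groups were embryonic day 16 (E16, 3 libraries), postnatal day 12 (P12, 3 libraries), P80 (3 libraries, labelled P80 or P81) and P310 (4 libraries, with labelled ages a few days below P310). Beads that remove myelin were applied to the adult tissue only, so the bead step cannot be told apart from the change of age between P12 and P80.

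Guanylate-binding proteins are large GTPases of the dynamin superfamily whose genes are switched on by interferons, interferon-gamma above all, in part through the transcription factor Irf1. In infected cells they assemble on the membranes that enclose bacteria and parasites, help to break them open, and promote the inflammasome, the complex that starts inflammatory cell death. In the brain they are known mainly as markers of an interferon response in microglia, astrocytes and endothelial cells.

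The libraries held 8669521 to 25810455 counts, of which mitochondrial genes took 1.52% to 3.54% at E16, 4.44% to 10.8% at P12, 12.8% to 23.5% at P80 and 18.3% to 34.4% at P310. This share was thus higher at P12 and again at P80, as the family was, and the family values without mitochondrial, ribosomal and haemoglobin genes are given beside the results. Over 16120 genes P12 replicates 2 and 3 gave a chi-square of 2.34 per degree of freedom, close to sampling noise, against at least 16.6 in the other 14 pairs of the same age. Their counts were summed and treated as 1 sample, called P12 replicate 2-3, which left 12 samples. The bead target Pdgfra had 33.0 ± 6.96, 70.1 ± 33.2, 37.1 ± 18.4 and 30.7 ± 25.8 CPM in the order of age (SD, with 3, 2, 3 and 4 samples). The summed CPM of 8 OPC markers was 383 ± 36.0, 543 ± 41.4, 246 ± 35.3 and 209 ± 70.8 at these ages. The summed CPM of 10 endothelial markers was 56.4 ± 14.1, 5068 ± 890.1, 6112 ± 490.3 and 6534 ± 1671, which is above the OPC sum at each postnatal age. The values below are therefore those of a mixed fraction. A pair of libraries stood apart in myelin genes, with a sum of 6 oligodendrocyte markers of 7623 CPM in P12 replicate 1 and 66943 CPM in P310 replicate 2, while the other P12 and P310 samples held 339 to 836 CPM.

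The family lies in a pair of gene clusters. Gbp5, Gbp7, Gbp3 and Gbp2 are on the plus strand of chromosome 3, between 142493978 (the start of Gbp5) and 142638008 (the end of Gbp2) in GRCm38. Gbp8, Gbp9, Gbp4, Gbp10, Gbp6 and Gbp11 are on the minus strand of chromosome 5, between 105014150 (the end of the annotated Gbp8) and 105343929 (the start of Gbp11). All but Gbp11 are annotated as protein-coding, while Gbp11 is a polymorphic pseudogene in GENCODE and a transcribed pseudogene in RefSeq. The remaining gene of the chromosome 3 cluster, Gbp2b, lies between Gbp3 and Gbp2 and is no member here.

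The chromosome 5 members are so alike that their reads cannot always be told apart, which bears on every value of these genes. The first 63 coding bases of each, read from the GENCODE M21 transcripts (GRCm38, minus strand), are shown for this reason, with capitals where a base differs from that of Gbp6.
Gbp8: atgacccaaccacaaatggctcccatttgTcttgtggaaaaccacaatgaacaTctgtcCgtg
Gbp9: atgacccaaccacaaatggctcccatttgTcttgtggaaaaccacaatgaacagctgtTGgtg
Gbp4: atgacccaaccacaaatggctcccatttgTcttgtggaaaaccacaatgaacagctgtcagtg
Gbp10: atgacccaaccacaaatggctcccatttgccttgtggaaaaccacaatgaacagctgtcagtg
Gbp6: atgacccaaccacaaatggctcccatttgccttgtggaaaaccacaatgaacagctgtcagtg
Gbp11: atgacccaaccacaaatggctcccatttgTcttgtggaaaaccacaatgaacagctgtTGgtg
Over these bases Gbp10 did not differ from Gbp6, Gbp4 differed at 1 base, and Gbp8, Gbp9 and Gbp11 differed at 3. Over the whole aligned coding sequence Gbp10 and Gbp6 were identical at 98.4% of 1836 bases. The closest pair among the chromosome 3 members was Gbp7 and Gbp3, at 78.5%. Of the words of 50 bases in the transcripts of Gbp10, 76.2% were also found in another family gene, and 73.3% were found in Gbp6. For Gbp6 this share was 49.9%. For the others it was 19.2% (Gbp11), 18.1% (Gbp8), 8.05% (Gbp9), 7.53% (Gbp4), 3.75% (Gbp3), 2.26% (Gbp7), 2.03% (Gbp2) and 0% (Gbp5). Gbp2b was counted as a family gene here, and the shared words of Gbp2 were all with Gbp2b. The Gbp11 model used for the counts has 1329 exon bases, fewer than the 1860 coding bases of its M21 transcript. With genes outside the family counted too, the share was 84.07% for Gbp10 and 70.65% for Gbp6. The predicted gene Gm43302, annotated across Gbp10 and Gbp6 on the same strand, shares 1726 exon bases with Gbp6 and 1792 with Gbp10. Reads that fell on several genes or mapped to several places had been counted for each, so Gbp6, Gbp10 and Gm43302 count many of the same reads. Gm43302 had 0.797 to 1.07 times the counts of Gbp6 in the 12 samples. Gbp7 also shared 10.5% of its words with the predicted gene Gm43802.

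**Figure D1:**
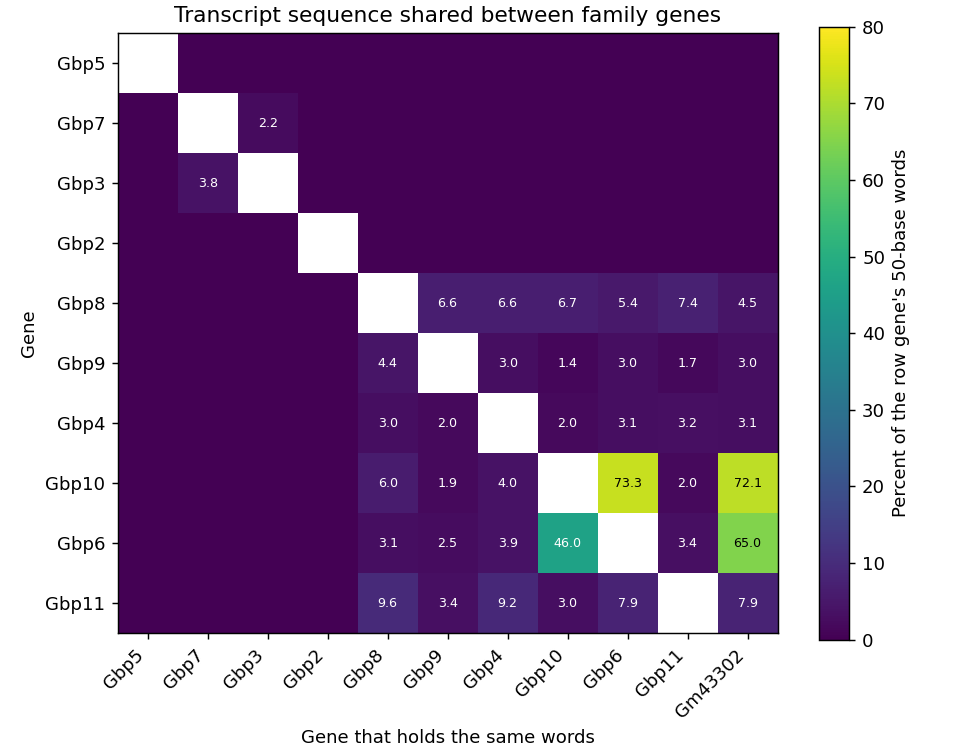
Percent of the 50-base words in the transcripts of the gene on the y axis that also occur in the gene on the x axis, as a colour scale from 0% to 80%, with values of 1% or more printed. Gbp10, Gbp6 and Gm43302 form a block of 46.0% to 73.3%, and no word of 50 bases links Gbp5 with another gene shown.

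The family was scarce in the embryo, higher at P12 and higher again at P80, with little difference between P80 and P310. The summed CPM of the 10 genes was 10.8, 11.9 and 6.96 in the E16 samples, 215 and 214 at P12, 574, 473 and 481 at P80, and 505, 446, 628 and 585 at P310. As means this was 9.88 ± 2.59 (SD, n = 3), 214 ± 0.525 (n = 2), 509 ± 56.2 (n = 3) and 541 (range 446 to 628, n = 4). The sum at P12 was 21.7 times that at E16, the sum at P80 was 2.37 times that at P12, and the sum at P310 was 1.06 times that at P80. The sum counts shared reads more than once. In bulk RNA a smaller number of cells that express a gene and less of its RNA per cell cannot be told apart.

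Every member was higher in each P12 sample than in any E16 sample. This held for 10 of 10 members, against 30.9% of the 21170 genes tested, and nothing is read from it since this contrast was in view when the genes were chosen. The median log2 change of the members was 4.04, with a range from 2.48 to 6.28, against 0.09 over all genes tested. Between P12 and P80 all 10 were again higher without overlap (11.1% of all genes), with a median log2 change of 1.49 and a range from 0.67 to 2.24, against -0.03 over all genes. From P80 to P310 the member changes lay between -0.15 and 0.46, with a median of 0.07 against 0.03 over all genes. There only Gbp4 was higher without overlap (2.27% of all genes), and 7 of 10 members had a higher mean at P310. Without P80 replicate 2 or without P310 replicate 3 this number was 4, and it was 6 to 8 without each of the other adult samples. Without P80 replicate 2, P310 replicate 1 or P310 replicate 2 a total of 2 members were higher without overlap, and without P310 replicate 3 there was 1 higher and 1 lower. With CPM of the raw totals the direction of this last step turned, with 2 of 10 members higher and a summed ratio of 0.902 and no member without overlap. Gbp4 also overlapped when mitochondrial, ribosomal and haemoglobin genes were left out. The first 2 steps kept 10 of 10 members higher without overlap under each of the scalings tried, without mitochondrial, ribosomal and haemoglobin genes (summed ratios of 23.0 and 2.26) and without each sample in turn. The shares over all genes given above are for TMM-scaled CPM of all 12 samples and were not computed for these settings. With fewer samples overlap is less likely for any gene, so nothing is read from these counts.

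**Figure D2:**
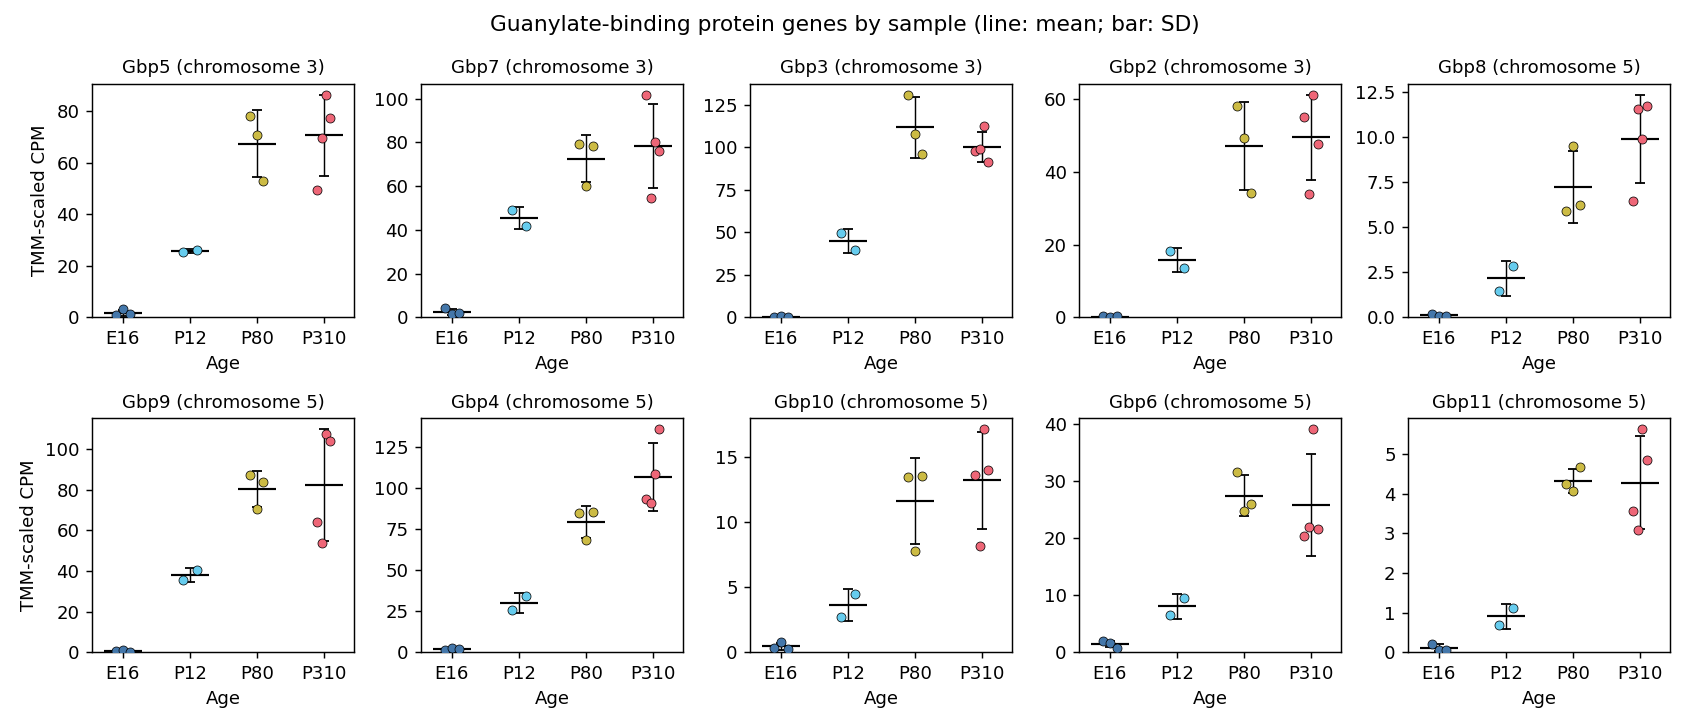
TMM-scaled CPM (y axis, linear, from 0) of each of the 10 genes in each of the 12 samples (points) by age (x axis), with the mean (line) and SD (bar). Every panel shows E16 near 0, P12 in between and the P80 and P310 samples on a shared level, with Gbp4 at P310 the one case in which all samples lie above those of P80.

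Among the chromosome 3 members Gbp2 was listed at 0 CPM in E16 replicate 2. Gbp2, which coats the vacuole of the parasite Toxoplasma in mouse cells, had 0.360, 0 and 0.295 CPM at E16, 18.1 and 13.5 at P12, 58.0, 49.2 and 34.1 at P80, and 55.0, 33.9, 61.0 and 47.6 at P310. The zero is 1 of 120 member values and allows up to 3 counts, which is 0.202 CPM of raw totals in that library. No E16 sample reached the lowest P12 value, and the P80 and P310 ranges were nearly the same. The log2 change was 6.16 from E16 to P12 and 1.58 from P12 to P80.

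For Gbp3 the samples gave 0.576, 0.724 and 0.413 CPM at E16, 49.9 and 39.9 at P12, 131, 108 and 96.2 at P80, and 98.2, 98.9, 113 and 91.7 at P310. It had the largest log2 change of the family from E16 to P12, 6.28, and the P80 and P310 samples overlapped. Gbp7, which in mouse macrophages has been linked to assembly of the phagocyte oxidase, had 4.17, 1.57 and 1.89 CPM at E16, 49.2 and 41.9 at P12, 79.2, 60.0 and 78.4 at P80, and 101.8, 54.8, 80.3 and 76.2 at P310. Its log2 change from P12 to P80, 0.67, was the smallest of the 10, and the lowest P310 sample lay below all P80 samples. Gbp5, which promotes inflammasome assembly in mouse macrophages, had 0.864, 3.26 and 1.18 CPM at E16, 25.3 and 26.2 at P12, 78.1, 70.7 and 52.9 at P80, and 49.5, 69.4, 86.1 and 77.4 at P310. Its log2 changes at the first 2 steps were 3.85 and 1.39, and the adult samples overlapped.

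Of the chromosome 5 members, Gbp9 and Gbp4 had the highest CPM at every postnatal age, on a scale that does not account for length. Gbp9 had 0.792, 0.965 and 0.295 CPM at E16, 35.4 and 40.4 at P12, 87.2, 70.3 and 83.6 at P80, and 63.9, 53.8, 107 and 104 at P310. The P310 samples of Gbp9 fell into a lower and a higher pair that enclosed all P80 samples. Gbp4, reported in mouse as an inhibitor of the interferon regulatory factor Irf7, had 1.30, 2.84 and 1.77 CPM at E16, 25.6 and 34.1 at P12, 84.9, 68.2 and 85.2 at P80, and 93.0, 90.7, 108 and 136 at P310. All 4 P310 samples of Gbp4 lay above the P80 samples, by a log2 change of 0.43, with a gap of the lowest P310 sample (90.7 CPM) to the highest P80 sample (85.2 CPM) that is small beside the spread within P310.

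Gbp6 and Gbp10, the pair with the closest coding sequence, count many of the same reads. Likeness between their values is therefore partly set by the counting. Gbp6 had 1.94, 1.63 and 0.767 CPM at E16, 6.47 and 9.61 at P12, 31.7, 24.8 and 26.0 at P80, and 20.5, 22.0, 39.1 and 21.7 at P310. Gbp10 had 0.360, 0.784 and 0.236 CPM at E16, 2.74 and 4.47 at P12, 13.4, 7.78 and 13.6 at P80, and 13.6, 8.14, 17.1 and 14.0 at P310. Mouse Gbp6 and Gbp10 have been linked to protection of macrophages against Listeria and mycobacteria. The log2 changes from E16 to P12 were 2.48 for Gbp6 and 2.95 for Gbp10, the 2 smallest of the family, and those from P12 to P80 were 1.77 and 1.68. For both, P310 replicate 3 was the highest sample.

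Gbp8 and Gbp11 had the fewest counts of the members. Gbp8 had 3, 1 and 1 counts at E16 (0.216, 0.0603 and 0.0590 CPM), and then 1.49 and 2.86 CPM at P12, 5.89, 9.51 and 6.26 at P80, and 6.47, 11.6, 9.90 and 11.7 at P310. The pseudogene Gbp11 also had 3, 1 and 1 counts at E16, and then 0.684 and 1.12 CPM at P12, 4.24, 4.08 and 4.66 at P80, and 3.56, 3.08, 5.62 and 4.85 at P310. Their E16 values thus rest on the number of reads that the counting limit allows for a gene with none, and their fitted log2 changes of 4.26 and 2.99 at the first step depend on it. From P12 to P80 the log2 changes were 1.71 for Gbp8 and 2.24 for Gbp11, the largest of the family at that step. Over all members and E16 samples the counts lay between 0 and 58.

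Gbp2b, the mouse gene once called Gbp1, had 0 counts at E16, 16 at P12, 51 at P80 and 48 at P310, or 0, 0.272 ± 0.0550 (n = 2), 1.23 ± 0.518 (n = 3) and 1.22 ± 1.04 CPM (n = 4). Against 3 counts over the 3 E16 samples together it was at least 4.30-fold higher at P12 and at least 19.5-fold higher at P80. One P310 sample, replicate 2, had no Gbp2b count.

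Between genes, levels were compared per length of exon, as RPKM (CPM divided by the exon length in kilobases). At P80 Gbp3 was highest with 34.2 ± 5.42 RPKM (n = 3), and its range did not overlap with that of the next gene, Gbp2, with 18.7 ± 4.81. Gbp9 (15.5 ± 1.72), Gbp7 (12.9 ± 1.93), Gbp4 (10.6 ± 1.30) and Gbp5 (10.1 ± 1.96) followed, each overlapping with its neighbours in the order. Gbp6 came next with 4.62 ± 0.615 RPKM, apart from the ranges of Gbp5 above it and Gbp11 (3.26 ± 0.226) below it. Gbp10 (2.99 ± 0.852) and Gbp8 (range 1.71 to 2.76) closed the order. At P310 Gbp3 was again highest with 30.8 ± 2.73 RPKM (n = 4) and apart from Gbp2 with 19.6 ± 4.65, and the same 4 genes, Gbp6, Gbp10, Gbp11 and Gbp8, held the lowest ranks. At P12 Gbp3 (13.8 ± 2.17 RPKM, n = 2) also led, while at E16 Gbp7 had the highest mean, 0.453 ± 0.253 RPKM (n = 3), and every neighbouring pair in the order overlapped. Gbp3, which ranked 5 at E16, thus had the highest level per length at each postnatal age. The RPKM of Gbp6 and Gbp10 includes reads they share.

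The 4 chromosome 3 members made up 46.7% to 66.3% of the summed CPM in the 12 samples, with the lowest share in E16 replicate 2 and the highest in P12 replicate 1. The P12 samples differed, with 66.3% and 56.8%, and the adult samples held 50.1% to 60.9%. Over the 9 postnatal samples the Pearson correlation of log2(CPM + 0.5) between members had a median of 0.87 over 45 pairs, from 0.50 for Gbp7 with Gbp8 to 0.96 for Gbp6 with Gbp11. These points share libraries, depth and, on chromosome 5, reads, and the P12 samples lie below the adult samples in every member, so the correlation is given as a description. Among the P310 samples replicate 3 was the highest in 7 of 10 members and replicate 2, the sample rich in myelin transcripts, was the lowest in 6. Without P310 replicate 2 the summed ratio of P310 to P80 was 1.12 in place of 1.06, and without P310 replicate 3 it was 1.01.

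Interferon signalling, its target genes and processes tied to the Gbp proteins were described with 103 genes in 7 lists. Of these, 101 were tested together with all other genes in edgeR's quasi-likelihood test with Benjamini-Hochberg adjustment. The lists for inflammasome and pyroptosis, Atg8 conjugation and CaaX prenylation are not interferon signalling. They held 13, 10 and 7 genes, of which 5, 0 and 1 passed from E16 to P12 and 0 from P12 to P80. From E16 to P12, 59 of 101 passed the test, 58 higher and 1 lower, against 27.2% of all genes tested (16.7% higher and 10.5% lower). Between P12 and P80, 15 of 101 were higher and 0 lower, against 1.42% of all genes (0.406% higher and 1.02% lower). From P80 to P310 none passed, as was the case for all genes (0%), with 1162 genes at an unadjusted p under 0.05. For all genes DESeq2 called 28 and limma-voom 0 at that last step, none of the 28 in the lists. The edgeR p-values judge a difference between ages against the spread between samples of the same age, estimated from all ages together.

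The ligand itself was not detectable at this depth. Ifng, the gene of interferon-gamma, had 1 count in all 12 samples, in P12 replicate 1, and Ifnb1, the gene of interferon-beta, had none. Of the 19 tested genes for receptors and signal transducers, 12 rose from E16 to P12 and 2 from P12 to P80. The ligand-binding receptor chain Ifngr1 had 8.98 ± 1.55 CPM in the 3 embryonic samples and rose to 63.1 ± 5.36 in the 2 P12 samples, by a log2 change of 2.81 (SE 0.33, adjusted p = 1.6e-05 in edgeR). The signalling chain Ifngr2 had 46.9 ± 4.20, 28.1 ± 5.74 CPM at the first 2 ages and 10.3 to 21.4 CPM at P80, with a log2 change of -0.74 at the first step (adjusted p = 0.271 in edgeR, 0.0466 in limma-voom). Whether the chains differ in their change was not tested.

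Irf1, an interferon-induced transcription factor that acts on the Gbp genes, rose from a range of 1.36 to 2.71 CPM at E16 (n = 3) to 18.0 ± 0.322 at P12 (n = 2), a log2 change of 3.10 (SE 0.41, edgeR adjusted p = 4.7e-05). Its value at P80 was 56.9 ± 11.9 CPM (n = 3), a log2 change of 1.66 that missed the threshold (edgeR adjusted p = 0.0690, from 0.00191 to 0.522 over the alternatives). Irf8, an interferon regulatory factor of myeloid cells, rose at the first step by 2.61 (SE 0.54, edgeR adjusted p = 0.00198) and changed by 0.38 at the second (adjusted p = 0.924). Usp18, which removes the ubiquitin-like Isg15 and dampens interferon signalling, rose by 5.97 from E16 to P12 (edgeR adjusted p = 2.0e-05). It had 3 counts over the E16 samples together, as many as the counting limit allows for a gene with none. The size of its change depends on that limit. Irf2, an interferon regulatory factor that can act as a repressor, rose by 1.90 at this step (edgeR adjusted p = 4.0e-05). From P12 to P80 the called genes were Irf7, the master regulator of type I interferon, with 6.27 ± 1.25 and 36.5 ± 3.83 CPM (log2 change 2.55, edgeR adjusted p = 0.00549), and Stat2, with 25.3 ± 7.01 and 70.7 ± 6.81 CPM (log2 change 1.48, adjusted p = 0.0183).

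Interferon-stimulated antiviral genes rose with the family at the first step. Of 26 genes 22 were higher and 0 lower, with a median log2 change of 3.02. Rnf213, a giant ubiquitin ligase, rose from 8.95 ± 1.91 to 141 ± 8.88 CPM, by a log2 change of 3.97 (SE 0.22, edgeR adjusted p = 1.2e-08). Samd9l, a restriction factor of poxviruses, rose by 6.09, the RNA sensor Ddx58 by 4.30 and the membrane protein Ifitm3, which blocks virus entry, by 4.98. From P12 to P80, 6 of 26 were higher and 0 lower. Ifit3, which is part of a complex that binds viral RNA, rose by a log2 change of 3.75 between 2.83 ± 0.920 CPM (n = 2) and 38.6 ± 16.9 (n = 3) (SE 0.59, edgeR adjusted p = 0.00436). The oligoadenylate synthetase Oas2 rose by 3.36, the ADP-ribosyltransferase Parp14 by 1.98 and Rnf213 by a further 1.54.

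Of 17 genes of antigen presentation and targets of interferon-gamma, 11 rose from E16 to P12 and 4 from P12 to P80, with none lower. Of these 4, B2m, H2-D1 and Nlrc5 lost the call without P12 replicate 1. The median log2 change at the first step was 3.09, or 2.72 with Cxcl10 and Ido1, which had no count at E16, set at their lower bound. These 2 genes were not called at that step, nor were Cxcl9, Ciita, Psme1 and Psme2. Cxcl9, Cxcl10 and Ido1 had means of at most 2.19, 0.507 and 0.828 CPM at any age. H2-K1, a heavy chain of class I MHC, rose from 4.02 ± 0.911 to 52.7 ± 0.0537 CPM and on to 212 ± 23.6 CPM, with log2 changes of 3.71 (SE 0.25, edgeR adjusted p = 5.7e-08) and 2.01 (SE 0.25, adjusted p = 8.8e-04). At P310 it had 305 ± 52.4 CPM, a log2 change of 0.52 that did not pass (edgeR adjusted p = 0.871). H2-D1 rose by 3.41 and 1.40 and the light chain B2m by 2.92 and 1.58 at the first and second step. The peptide transporter Tap2 rose by 5.45 at the first step, and Nlrc5, the transactivator of class I MHC genes, by 3.35 at the second.

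The other interferon-inducible GTPases, which work beside the Gbp proteins at pathogen vacuoles, held the gene with the smallest adjusted p of all lists at both steps, Gvin1. Of 9 genes 7 rose and 1 fell from E16 to P12, and 3 rose from P12 to P80. Gvin1, a giant GTPase, rose from 1.08 ± 0.191 to 29.8 ± 5.07 and on to 221 ± 4.53 CPM, with log2 changes of 4.78 (SE 0.24, edgeR adjusted p = 6.7e-09) and 2.89 (SE 0.24, adjusted p = 4.0e-05). Irgm2, a regulator of the immunity-related GTPases, rose by 4.83 at the first step. The near-identical effectors Tgtp1 and Tgtp2, whose reads may be shared, rose at the second step by 3.50 and 3.57 (edgeR adjusted p = 6.9e-04 and 0.00253). Without a single read at E16, Tgtp2 reached 2.92 ± 1.07 CPM at P12, which is at least 46.1-fold higher than 3 counts over the 3 E16 samples. Irgq, a relative of these GTPases that is named after its values were seen as the one gene of the lists that fell, did so by a log2 change of -1.49, from 85.2 ± 15.0 to 30.2 ± 1.39 CPM (edgeR adjusted p = 0.0010).

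Of 13 inflammasome and pyroptosis genes 5 rose at the first step, with a median log2 change of 1.97 over the 13, and 0 at the second. Casp8, a protease of cell death, rose by 2.97, Gsdmd, which forms the pores of pyroptosis, by 2.29, and Ninj1, which ruptures the membrane afterwards, by 1.97. The cytokine gene Il18 rose by 2.54 (edgeR adjusted p = 0.0118), a call lost without E16 replicate 1, without E16 replicate 2 or without P12 replicate 2-3, where the adjusted p was at most 0.0553. None of 10 genes for Atg8 conjugation, which guides the GTPases to vacuoles in mouse cells, passed at any step, with a median log2 change of -0.43 at the first. Of 7 genes for CaaX prenylation, the lipid anchor that Gbp2 and Gbp5 carry, Icmt alone passed, at the first step, by 1.04 (edgeR adjusted p = 0.0233), and the call was lost without P12 replicate 1 or without any one of the E16 samples (adjusted p up to 0.233).

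At the second step the calls depended on both P12 samples. Without P12 replicate 1, which was rich in myelin transcripts, 11 of the 15 list genes lost the call, and without P12 replicate 2-3 the number was 7. Each omission leaves 1 sample at P12. The median log2 change of the 15 genes was 2.55 with all samples, 2.47 without replicate 1 and 2.35 without replicate 2-3, and each of the 15 stayed higher at P80. Gvin1, Tgtp1, Tgtp2 and H2-K1 were the 4 called under all 22 alternatives. At the first step 49 of 59 list genes were called under all 22.

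**Figure D3:**
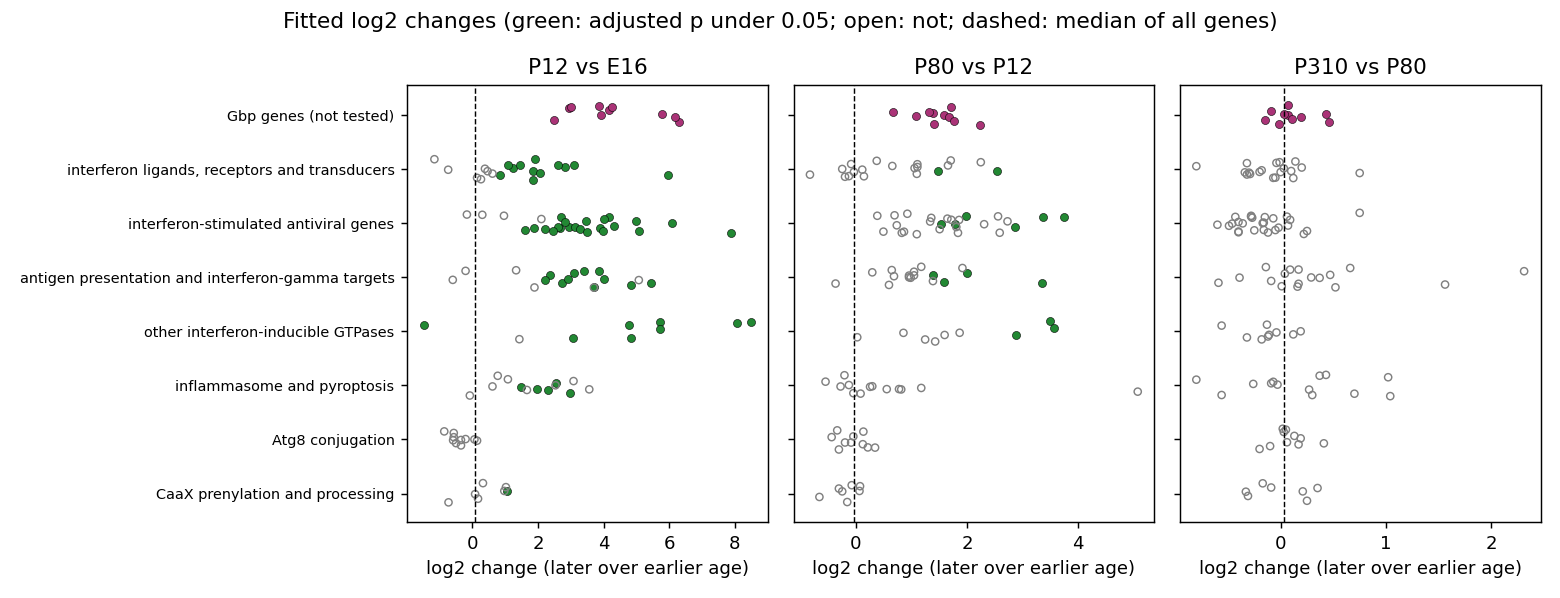
Fitted log2 change of each gene (x axis, later over earlier age) for the 10 family genes (purple, not tested) and the 7 lists (1 row each), in 1 panel per step; green points passed the test and open points did not, and the dashed line is the median of all genes. Most family, antiviral, GTPase, antigen presentation and interferon-gamma target genes lie to the right of that line at the first and second step. Points lie on both sides of it from P80 to P310.

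Markers of endothelial cells and microglia were higher at P12 than at E16, and those of immature neurons were lower. All 10 endothelial markers passed the test as higher from E16 to P12, with the sum rising from a range of 40.9 to 68.3 CPM to one of 4438 to 5697 CPM. From P12 to P80 none of the 10 was called higher (0.406% of all genes) and 1, Kdr, was called lower. The sum was 5577 to 6540 CPM at P80, but the markers split at this step. Log2 changes were 1.19 for Ly6c1, 1.14 for Flt1, 0.91 for Slco1a4, 0.87 for Abcb1a, 0.16 for Pecam1 and 0.09 for Tek. They were -1.57 for Kdr, -0.56 for Cldn5, -0.32 for Cdh5 and -0.11 for Tie1. The 8 microglia markers were all called higher at the first step (79.8 to 115 CPM at E16 and 902 to 965 CPM at P12) and none was called at the second (344 to 1168 CPM at P80 and 291 to 1113 CPM at P310). Border macrophage and leukocyte markers summed to 61.5 ± 5.90, 103 ± 7.21, 173 ± 57.7 and 192 ± 54.0 CPM, and those of T and NK cells to 2.36 ± 0.990, 7.04 ± 5.03, 7.79 ± 2.40 and 9.03 ± 2.59 CPM at the 4 ages. In the T and NK cell list Cd3e, Nkg7 and Gzma were at 0 at E16, Klrb1c and Gzma at P12 and P310, and Cd8a at P80. None of the endothelial and microglia markers was at 0 in a whole age group.

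The E16 samples were rich in transcripts of immature neurons. The sum of 5 immature neuron markers was 4468 to 5275 CPM at E16, above the OPC sum there, against 85.8 to 132 CPM at P12, 52.8 to 69.7 at P80 and 61.4 to 112 at P310. All 5 were called lower at the first step (median log2 change -5.78), and 2 were called lower at the second. Of the astrocyte markers 5 of 6 were called higher at the first step and 1 lower at the second, with sums of 228 ± 26.3, 1399 ± 131, 706 ± 67.4 and 479 ± 144 CPM in the order of age. Of the mural cell markers 4 of 6, and of the ependymal markers 4 of 4, were called higher at the first step and none at the second. The mural sums were 141 ± 37.2, 837 ± 195, 941 ± 133 and 867 ± 250 CPM. The ependymal sum ranged from 829 to 5388 CPM at P12 and from 487 to 5985 CPM in the adult samples, and from 84.6 to 154 CPM at E16, where Tmem212 was at 0. Each list sum was also correlated with the family sum over the 9 postnatal samples, both as log2(CPM + 0.5). The Pearson correlation was 0.97 for the other interferon-inducible GTPases, 0.96 for antiviral genes and 0.95 for antigen presentation and interferon-gamma targets. It was 0.78 for interferon ligands, receptors and transducers, 0.53 for inflammasome and pyroptosis, 0.29 for Atg8 conjugation and -0.24 for CaaX prenylation. Among the cell type lists it was 0.62 for the endothelial list, 0.53 for border macrophages and leukocytes and 0.20 for T and NK cells. It was -0.95 for the OPC list, -0.84 for astrocytes, -0.77 for fibroblasts, -0.74 for erythroid cells and -0.50 for microglia. Immature neurons had -0.45, oligodendrocytes -0.27, mural cells -0.07 and ependymal cells -0.00. These values are a description over samples of 3 ages that share their libraries.

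Per 100 CPM of endothelial markers the family sum was 17.5 ± 0.494, 4.30 ± 0.744, 8.36 ± 1.02 and 8.51 ± 1.30 CPM in the order of age. This ratio was therefore lower at P12 than at E16, and higher at P80 than at P12, without overlap in either case. Per 100 CPM of microglia markers it was 10.1 ± 3.53, 23.0 ± 1.16, 88.1 ± 68.6 and 110 ± 66.8 at the same ages. Within the P310 samples the highest endothelial sum, 8299 CPM, and the highest family sum were both in replicate 3, and the lowest of both were in replicate 2, with 4293 CPM of endothelial markers. The part of these cells in the changes of the family was not tested.

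**Figure D4:**
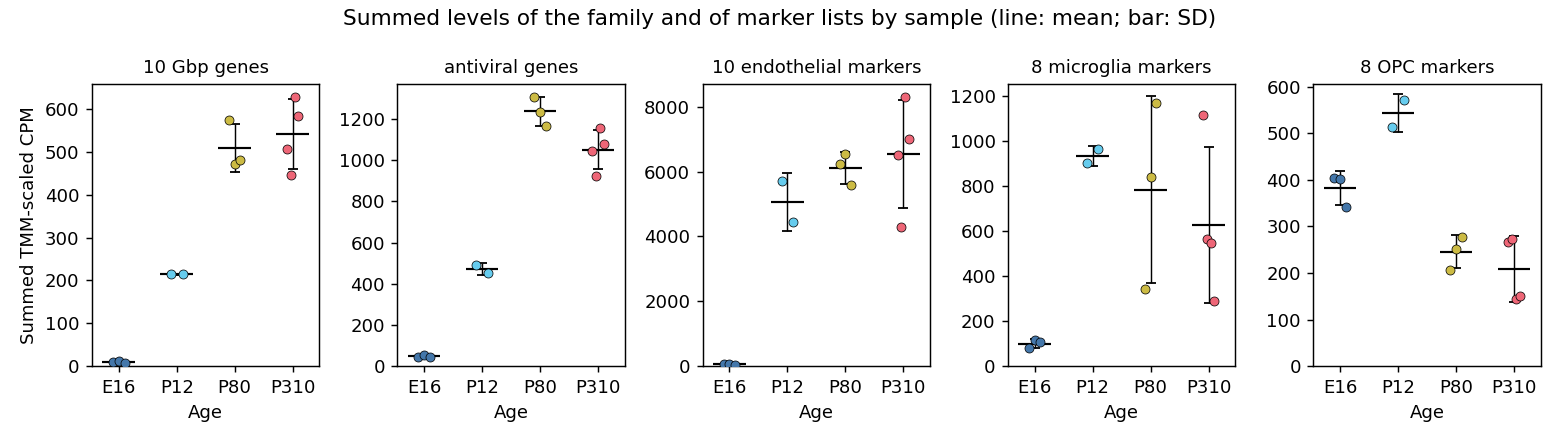
Summed TMM-scaled CPM (y axis, linear, from 0) of the 10 Gbp genes and of 4 lists in each of the 12 samples (points) by age (x axis), with the mean (line) and SD (bar). The family and the antiviral list are at their lowest at E16, in between at P12 and highest at P80 and P310, whereas the endothelial sum is already at 4438 CPM or more at P12 and the OPC sum is highest at P12.

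Gene by gene, the patterns most like that of the summed family over the 9 postnatal samples were ranked among the 11980 coding genes that averaged 5 CPM or more there. Phf11d came first with a Pearson correlation of 0.983, followed by Cp, which encodes the copper-carrying ferroxidase ceruloplasmin (0.981), and Eps8l2, an actin regulator (0.977). Utrn, which encodes the dystrophin relative utrophin (0.975), Sp100, a nuclear body protein (0.973), and Gipc3 (0.971) came next. Cp had 4.21, 69.9, 252 and 315 CPM on average at the 4 ages, and Sp100 had 2.36, 22.4, 82.7 and 87.4. The correlation is a description over samples of 3 ages in which the family differs, and each point shares its library with the genes compared.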

How the data were processed

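Libraries of total RNA from Pdgfra-sorted cells were made with a stranded kit for small inputs. The authors deposited raw counts per gene, obtained, per the file headers, with featureCounts 1.5.0-p1 on an Ensembl release 92 annotation of GRCm38, with reads counted for every gene they overlap by at least 10 bases and for every place they map to, and with no strand option. Trim Galore and TopHat2 2.1.1 are named in the submitters' processing notes. Each gene's reads thus include those of its paralogs and of overlapping genes.

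Of 37785 genes, 37715 were named from GENCODE M21. Depth was 8669521 to 25810455 counts per library. A count of 0 allows up to 3 counts (0.116 to 0.346 CPM), a limit for counting error alone, as PCR copies of a molecule are not independent. P12 replicates 2 and 3 were summed after comparison of all pairs of libraries of an age over genes with at least 20 counts. Genes were filtered with filterByExpr, scaled by TMM and fitted with a mean per age over all 12 samples with the robust quasi-likelihood F test of edgeR 4.0.16 in R 4.3.3, with Benjamini-Hochberg adjustment over 21170 genes and a threshold of 0.05. The common biological coefficient of variation was 0.513. CPM are scaled by TMM unless raw totals are named. RPKM use the exon lengths of the deposited tables, and likeness used log2(CPM + 0.5).

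The members, the lists and the alternatives were chosen with earlier results of these data known. Named were all members, Gbp2b and up to 4 called genes with the smallest adjusted p per list and step. So were Ifng, Ifngr1, Ifngr2, Irf1, Irf8, Pdgfra and the 6 genes most like the family sum. Ifnb1 was added because it has no count, and Irgq because it was the one list gene that fell. Genes of antigen presentation and interferon-gamma targets not called at the first step were added as well. Of the genes this rule names, 1 is not reported here. Alternatives were RLE and upper quartile scaling, CPM of raw totals, no filter, a stricter filter (1 CPM in 3 libraries), DESeq2 1.42.0, limma-voom 3.58.1 with quality weights, a fit of 2 ages alone, a replicate block, counts without mitochondrial, ribosomal and haemoglobin genes, each sample left out in turn, and no summing of P12 replicates 2 and 3. Transcript sequences are from GENCODE M21 and were compared with Biopython 1.88. Summaries and figures were made in Python 3.11.15 with numpy 2.4.6, pandas 2.3.3 and matplotlib 3.10.9.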

Additional observations from a re-analysis of the deposited data

Results flagged for a closer look

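Gbp6 at P310 had 1 sample far from the others. P310 replicate 3 stood at 39.14 CPM and the nearest of the other 3 samples at 22.0 CPM, a gap that is 0.918 of the range of the group. Chance flags about 1 in 20 groups of samples in this way. The same sample was the highest of its age for 7 of the 10 family genes, and Gbp6 counts many of the same reads as Gbp10 (17.1 CPM in that sample) and Gm43302 (32.6 CPM). The part of shared reads in this value was not tested.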

How the results depend on the processing

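No alternative reversed the direction of a list gene that was called, although some uncalled list genes changed sign, and the summed ratio of the family from P80 to P310 turned from 1.06 to 0.902 with CPM of raw totals. For P80 vs P12, genes called went from 301 to 877 without a low-count filter, 639 in DESeq2, 490 in limma-voom and 521 with P12 replicates 2 and 3 kept apart, and list genes called from 15 to 25, 34, 28 and 32. Leaving out 1 sample gave 71 (without P12 replicate 1) to 446 genes, with 191 and 151 without P80 replicates 1 and 3, and 4 (without P12 replicate 1) to 20 list genes, with 8 without P12 replicate 2-3. For P310 vs P80, 423 genes and 1 list gene were called without the filter and 28 genes in DESeq2, and leaving out samples gave 0 to 1. For P12 vs E16, leaving out samples gave 3748 (without P12 replicate 2-3) to 6553 genes and 52 to 62 list genes. Where 1 P12 sample is left, it is assumed to vary like the other ages. The cause of these shifts was not tested beyond the fewer samples.

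The summed CPM of the family at P12 was 211 with RLE, 213.7 with upper quartile scaling, 215.6 with P12 replicates 2 and 3 kept apart, 234.4 with raw totals and 275.1 without mitochondrial, ribosomal and haemoglobin genes, and 211 to 220.3 when leaving out samples. Without those genes it was 622.5 at P80 and 653.9 at P310. Leaving out samples gave 8.79 to 11.2 at E16, 470.3 to 540.2 at P80 and 513 to 605.4 at P310. The median log2 change of all genes from E16 to P12 moved from 0.09 to 0.27 without the filter. It moved to 0.19 without mitochondrial, ribosomal and haemoglobin genes. Without P12 replicate 2-3 it moved to -0.14. The members' median was 4.05, 4.12 and 3.75 in these 3 settings, and it was 4.24 without E16 replicate 1. The members' values are given as a description since the members were chosen with this contrast in view.

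Replicate numbers are shared between ages. Correlations of the deviations from the age mean lay from -0.08 to 0.22 in 15 same-numbered pairs. They lay from -0.26 to 0.26 in the 38 others. The deviations of the 2 P12 samples mirror each other by construction and set both ends of that wider range. The comparison therefore cannot exclude that same-numbered samples deviated together. A replicate block gave 3324 higher and 2044 lower calls for P12 vs E16, 59 and 184 for P80 vs P12, and 0 for P310 vs P80. Of the other results, 42 of the list counts moved and 882 did not, and single genes gained a call in 100 cases, lost it in 54 and kept their side in 6469.

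Depth limits the E16 values most: members had 0 to 58 counts there, and Gbp2b, Tgtp2 and other genes with none have only a lower bound.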
